A study of Arabidopsis thaliana with 10 samples.

Results

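RNA polymerase II (RNAPII) loops and H3K4me1 loops of Arabidopsis shoots were compared anchor by anchor. ChIA-PET joins DNA ends that lie close together in chromatin pulled down with an antibody, and the joined ends are read as paired-end tags (PETs). A loop is a pair of anchors, here ChIP-seq peaks of the same factor, joined by more PETs than a background model allows. Loops with 6 PETs or more within a chromosome and 8 or more between chromosomes were taken from both lists, which gave 20687 of the 59276 loops in the 5 lists of the series. The loops that joined 2 different anchors had 2838 RNAPII anchors and 6474 H3K4me1 anchors, 9312 of the 26626 anchors in the 5 lists. An anchor was called shared when it overlapped an anchor of the other list by 1 bp or more, and otherwise RNAPII-only or H3K4me1-only. The plants were Col-0, the wild-type reference strain, with no transgene or treatment in the labels. Shoots of 2-week-old seedlings were cross-linked with EGS and formaldehyde, and chromatin was pulled down with an antibody to RNAPII or to H3K4me1. Each antibody had 2 labelled replicates, and the list of each antibody was called on both replicates together, so the lists hold no spread between plants and no test between them was possible. More sequenced libraries were pooled for H3K4me1 than for RNAPII, and how they relate to the replicates is not given in the sources used here, which bears on every comparison of PETs or tags. Intervals are 95% intervals that cover counting error only, and loops that share an anchor are not independent. Shoots mix many cell types, so a loop in each list may come from different cells.

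RNAPII transcribes protein-coding genes. It is dense over strongly transcribed genes, often near their 3′ ends, where it slows before termination. H3K4me1, histone H3 with a single methyl group on lysine 4, lies in plants mainly over the bodies of transcribed genes, away from the start site, where H3K4me3 takes its place.

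Shoot and root marker genes were looked up in the anchors. All 8 shoot marker genes, such as RBCS1A and RCA, were RNAPII-only anchor genes, beside 9.91% of all protein-coding genes. These 8 are part of the photosynthesis list given below. Of 10 root marker genes, such as the root hair gene RHD6 and the root patterning gene SHR, 0 had an anchor in either list. Of all protein-coding genes, 64.0% likewise had none, so the root count alone says little. The RNAPII list held 7332 loops with 95118 PETs at the common minimum, 53.8% of the 13633 loops deposited, because its deposited minimum was 4 within and 6 between chromosomes. The H3K4me1 list held 13355 loops with 150731 PETs and lost none. The median number of tags in an anchor was 2086.5 for RNAPII and 4055 for H3K4me1.

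Promoter sequences are shown for the short motif, of 6 searched, whose share differed most, as a ratio, between RNAPII-only and H3K4me1-only genes, the CGCG box (CGCGT, or ACGCG on the other strand), a core bound by calmodulin-dependent CAMTA activators. The 4 sequences that come first are the RNAPII-only genes with the most PETs among those with 20 loops or more and the motif, 1 gene for each anchor. They were picked for holding the motif, after the values were known, and show where it lies. Each is the 150 bases before the annotated start site in the RefSeq assembly TAIR10.1, written 5′ to 3′ on the strand of the gene, with the motif in capitals.
AT4G32020: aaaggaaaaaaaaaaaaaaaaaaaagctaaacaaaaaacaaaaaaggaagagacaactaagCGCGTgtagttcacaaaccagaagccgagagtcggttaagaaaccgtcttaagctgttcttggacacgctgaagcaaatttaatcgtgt
AT4G27652: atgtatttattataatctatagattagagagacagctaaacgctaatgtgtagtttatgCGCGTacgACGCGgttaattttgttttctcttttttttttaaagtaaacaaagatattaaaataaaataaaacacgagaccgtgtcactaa
AT5G08760: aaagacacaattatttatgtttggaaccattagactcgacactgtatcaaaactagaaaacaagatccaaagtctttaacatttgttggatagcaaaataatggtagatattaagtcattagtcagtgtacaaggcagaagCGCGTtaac
AT1G32920: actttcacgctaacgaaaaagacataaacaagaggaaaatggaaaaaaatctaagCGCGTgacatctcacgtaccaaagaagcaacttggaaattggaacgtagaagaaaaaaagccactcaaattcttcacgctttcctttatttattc
These stretches lie at chr4:15487764-15487913, chr4:13809629-13809778, chr5:2854707-2854856 and chr1:11928607-11928756, all on the plus strand. AT4G32020 encodes a serine/arginine repetitive matrix-like protein and had 71 RNAPII loops with 1720 PETs, in an anchor that also covers AT4G32030. The product of AT4G27652 is uncharacterized, and its gene had 59 RNAPII loops, in an anchor that also covers AT4G27654 and AT4G27657. AT5G08760, in the same anchor as ATAF2, had 56 and AT1G32920 had 54, and none of the 4 genes had an H3K4me1 loop. The next pair of sequences has the G-box (CACGTG), a site for bZIP and bHLH factors of light and jasmonate signalling. They are the RNAPII-only photosynthesis genes with the most PETs among those with the G-box, both for antenna proteins, at chr1:5447881-5448030 and chr3:17495034-17495183, both on the minus strand.
LHCB6: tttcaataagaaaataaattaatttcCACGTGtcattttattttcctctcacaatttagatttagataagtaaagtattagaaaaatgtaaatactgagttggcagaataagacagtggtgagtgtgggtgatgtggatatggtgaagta
LHCA4: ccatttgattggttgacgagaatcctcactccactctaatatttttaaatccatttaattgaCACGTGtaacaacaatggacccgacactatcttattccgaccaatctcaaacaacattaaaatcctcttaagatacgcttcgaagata
The last pair belongs to very long genes with H3K4me1 loops and no RNAPII loop. They had the most H3K4me1 PETs among the PI3K-like kinases and the chromatin remodellers. ATM, at chr3:17801139-17801288, encodes the kinase that signals DNA breaks, and SYD, at chr2:12056063-12056212, also on the plus strand, encodes a SWI/SNF chromatin remodeller. Neither stretch holds CGCGT on either strand.
ATM: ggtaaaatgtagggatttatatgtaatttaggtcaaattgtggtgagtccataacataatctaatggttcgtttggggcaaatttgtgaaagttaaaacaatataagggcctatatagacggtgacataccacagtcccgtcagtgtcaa
SYD: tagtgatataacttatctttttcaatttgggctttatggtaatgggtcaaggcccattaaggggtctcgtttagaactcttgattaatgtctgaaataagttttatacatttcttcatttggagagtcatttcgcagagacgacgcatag

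Of the 2838 RNAPII anchors, 652 (22.97%, interval 21.4 to 24.6) were shared, and of the 6474 H3K4me1 anchors, 688 (10.6%, 9.89 to 11.4) were shared. The other 2186 RNAPII anchors and 5786 H3K4me1 anchors were found in 1 list. By the anchor gene rule below, 2.43% of all 27444 protein-coding genes were in both lists, 9.91% were RNAPII-only and 23.7% H3K4me1-only. How much overlap unrelated anchors would have was not tested. Overlap was often slight. The 744 overlapping pairs shared a median of 1192 bp, and 70 of them shared under 100 bp. In 491 pairs both anchors had the same gene, with a median overlap of 1829 bp, and in 266 of these the H3K4me1 anchor lay wholly inside the RNAPII anchor. In the other 253 pairs the anchors belonged to different genes, mostly neighbours that touched over a median of 302 bp. When the 1 bp rule was replaced by the central 1 kb of each anchor, the shared part fell to 11.3% of RNAPII anchors and 4.94% of H3K4me1 anchors. An RNAPII-only anchor lay a median of 6.49 kb (5.99 to 7.06) from the nearest H3K4me1 anchor, and an H3K4me1-only anchor lay 16.7 kb (16.0 to 17.4) from the nearest RNAPII anchor.

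RNAPII-only anchors sat on shorter genes than H3K4me1-only anchors. By the gene with the most overlap, both sat on longer genes than the median gene. For RNAPII-only this did not hold by the anchor gene rule given below. The protein-coding gene with the most overlap had a median length of 2310 bp (2254 to 2362) at RNAPII-only anchors and 3545 bp (3497 to 3590) at H3K4me1-only anchors, against 2078 bp for all 27444 protein-coding genes. Shared anchors were on long genes in both lists, with medians of 3695.5 bp (3491 to 3850) for the RNAPII anchors and 3951.5 bp (3791 to 4055) for the H3K4me1 anchors. Genes with a single exon made up 20.2% at RNAPII-only anchors and 4.25% at H3K4me1-only anchors, and the median exon number was 3 and 9. Median anchor widths were closer, at 2475.5 bp for RNAPII-only and 2772 bp for H3K4me1-only anchors, and shared RNAPII anchors were the widest at 3484.5 bp.

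The position within the gene also separated the lists. RNAPII-only anchors covered the gene end in 87.2% of cases (85.7 to 88.6) and the start site in 39.6% (37.5 to 41.7). H3K4me1-only anchors covered the end in 20.2% (19.2 to 21.3) and the start in 5.84% (5.25 to 6.48), and 76.7% of them (75.6 to 77.8) lay entirely inside the gene, compared with 7.05% of RNAPII-only anchors. The difference at the gene end was also there between overlapping anchors. Shared RNAPII anchors covered the gene end in 79.0% of cases (75.7 to 82.1), and the H3K4me1 anchors that overlapped them in 10.6% (8.43 to 13.2). The midpoints were closer, at a median of 64.1% of the gene for RNAPII-only and 55.6% for H3K4me1-only anchors, and 59.0% and 55.7% for the shared anchors of each list. Where both anchors had the same gene, the RNAPII midpoint lay downstream in 254 of 491 pairs, so that neither side prevailed.

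**Figure D1:**
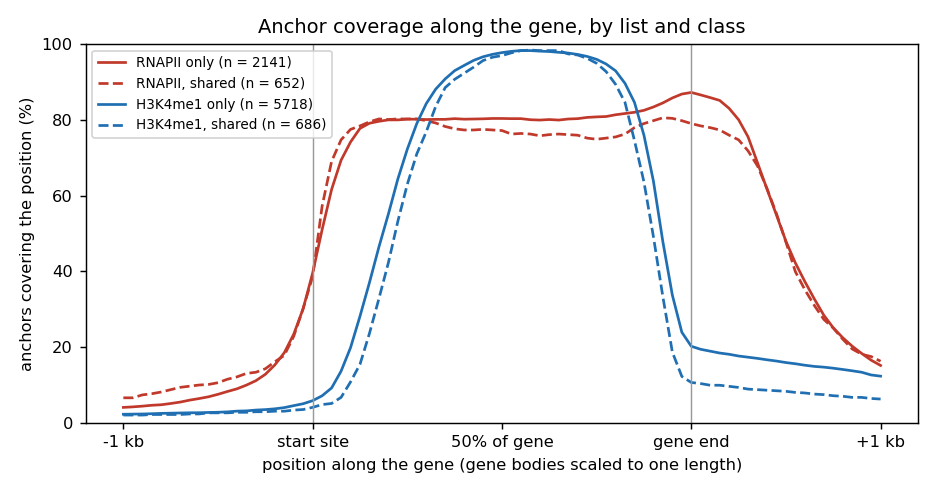
Share of anchors (percent, y axis) that cover each position of their gene, from 1 kb before the start site to 1 kb after the gene end, with gene bodies scaled to 1 length; red is RNAPII, blue is H3K4me1, solid lines are anchors in 1 list and dashed lines are shared anchors. RNAPII coverage stays high to the gene end (87.2% of RNAPII-only anchors) and H3K4me1 coverage is confined largely to the body, with 20.2% of H3K4me1-only anchors over the end.

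H3K4me3, the start-site mark, was set beside both. At the same PET minimum, 69.8% of RNAPII-only anchors (67.8 to 71.7) overlapped an H3K4me3 anchor, and 38.0% of H3K4me1-only anchors (36.8 to 39.3) did. Shared anchors were in between or close to the RNAPII-only value, with 67.6% of the RNAPII anchors and 57.4% of the H3K4me1 anchors. Counted by gene, in the gene classes given below, the H3K4me3 shares were 71.2% for RNAPII-only and 50.95% for H3K4me1-only genes. They were 73.6% for genes in both lists and 30.4% for genes in neither. The lower share of H3K4me1-only anchors therefore does not mean that their genes lacked H3K4me3. H3K27me3 anchors, of Polycomb-repressed chromatin, overlapped 4.80% of RNAPII-only and 3.01% of H3K4me1-only anchors. By gene the H3K27me3 shares of these classes were 2.90% and 2.62%, beside 20.2% of genes in neither list. H3K9me2 anchors, of heterochromatin, overlapped 1 RNAPII-only anchor and 0 of 5786 H3K4me1-only anchors, which allows a share of up to 0.0637%.

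For the gene lists, a gene was an anchor gene when an anchor lay at least 0.5 in it or covered 0.5 of it, counted from 1 kb before the start site to the gene end. Of the 27444 protein-coding genes, 2721 (9.91%) were RNAPII-only anchor genes, 6498 (23.7%) were H3K4me1-only and 666 (2.43%) were in both. Their median lengths were 2008, 3361.5 and 3866 bp, and genes in neither list had 1725 bp. By this rule RNAPII-only genes (1958 to 2054) were slightly shorter than the 2078 bp of all genes. RNAPII-only genes were most frequent between 1 and 2 kb, with 12.5% of genes of that length (11.8 to 13.2), and were 4.18% of genes between 4 and 6 kb and 0 of the 122 genes over 10 kb, which allows up to 2.98%. H3K4me1-only genes rose from 3.93% of genes under 1 kb to 44.6% between 3 and 4 kb and 86.9% (79.6 to 92.3) over 10 kb. Genes in both lists rose from 0.137% under 1 kb to 9.20% between 4 and 6 kb and 9.84% over 10 kb.

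**Figure D2:**
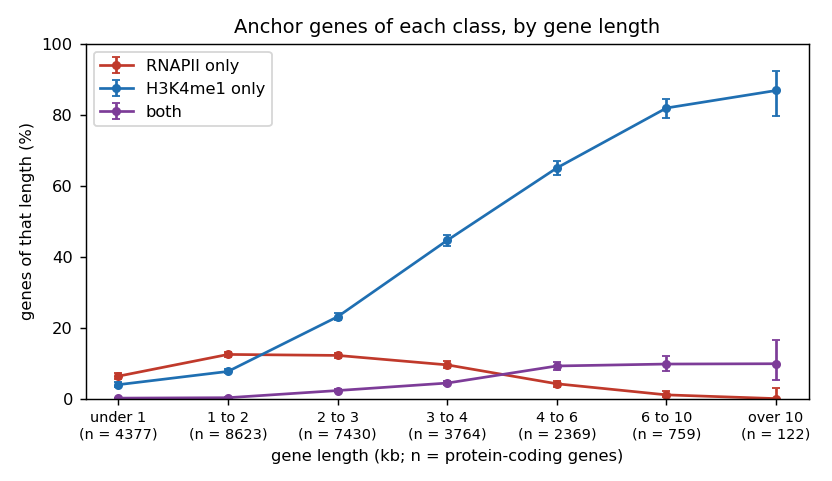
Share of protein-coding genes (percent, y axis) that were RNAPII-only, H3K4me1-only or both-list anchor genes, by gene length in kb (x axis, with the number of genes); bars are exact 95% binomial intervals. H3K4me1-only genes climb from 3.93% under 1 kb to 86.9% over 10 kb, and RNAPII-only genes peak at 12.5% between 1 and 2 kb.

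Photosynthesis genes belonged to RNAPII. Of 58 nuclear photosynthesis genes, 51 (87.9%, 76.7 to 95.01) were RNAPII-only, 0 were H3K4me1-only and 1 was in both, beside 9.91% and 23.7% of all genes. The genes were short, with a median of 1465 bp, and 13.05% of all genes in the middle length range of the list (its interquartile range) were RNAPII-only, against 89.3% of the 28 list members in that range. RBCS1A, the most used small subunit gene of Rubisco, had 13 RNAPII loops with 139 PETs. LHCB6, an antenna protein of photosystem II, had 12 loops with 145 PETs, and DRT112, a plastocyanin, had 10 loops with 162 PETs. FNR1, which passes electrons from ferredoxin to NADP, was the exception in both lists, with 18 RNAPII loops of 327 PETs and 1 H3K4me1 loop of 6 PETs, and its RNAPII anchor also covers its neighbours ARO2 and CPK28. Loops also joined photosynthesis genes of 1 family to each other, such as LHCB2.2 to LHCB2.1 (24 PETs, 23.8 kb), RBCS3B to RBCS1B (15 PETs, 6.65 kb) and CAB2 to CAB1 (14 PETs, 3.61 kb).

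Genes that respond fast to stress were among the best connected RNAPII-only genes. Of 40 rapid stress response regulators, 33 (82.5%) were RNAPII-only and 0 were H3K4me1-only. Among all genes in the middle length range of the list, 12.7% were RNAPII-only and 8.38% H3K4me1-only. Of the 20 list members in that range, 75% were RNAPII-only. NAC102 and ATAF2, stress-related NAC factors, had 59 and 56 RNAPII loops with 1215 and 1119 PETs. ERF4, a transcriptional repressor of ethylene and jasmonate responses, had 51 loops, and SZF1, a salt-induced zinc finger protein, also had 51. The touch genes TCH3 and TCH2, which encode calmodulin-like proteins, had 35 and 21 loops, and TCH4, a cell wall enzyme, had 27. The cold regulators CBF1 and CBF2 were joined by 89 PETs over 6.63 kb. DREB1A lies between them and was in neither list. Farther apart, ATAF2 and NAC102 were joined by 49 PETs across 22669.5 kb of chromosome 5, and WRKY40 was joined to TCH4 on another chromosome by 26 PETs. The 40 regulators summed to 537 RNAPII loops and 0 H3K4me1 loops.

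Jasmonate genes followed the same pattern with a few exceptions. Of 28 genes of jasmonate synthesis and response, 18 (64.3%, 44.1 to 81.4) were RNAPII-only, 3 were H3K4me1-only and 2 were in both. Among all genes in the middle length range of the list, 11.9% were RNAPII-only and 24.2% H3K4me1-only. Of the 14 list members in that range, 64.3% were RNAPII-only and 14.3% H3K4me1-only. LOX3 and LOX4, lipoxygenases of the first step of synthesis, had 39 and 36 RNAPII loops with 858 and 570 PETs. TIFY7, itself a gene of the JAZ repressor family, had the most loops of the list, 46 with 690 PETs. The JAZ repressors JAZ6, JAZ5 and JAZ1 followed with 37, 32 and 26 loops, and MYC2, the factor that JAZ repressors hold back, had 17. JAZ5 was joined to LOX3 by 64 PETs over 27.6 kb, and JAZ6 to LOX4 by 27 PETs over 36.1 kb, so that each of these lipoxygenase genes was looped to a nearby repressor gene. JAZ3 was in both lists, with 14 RNAPII loops and 3 H3K4me1 loops.

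Other lists of mostly short genes had smaller RNAPII-only shares when all members were counted. Of 14 polyubiquitin and ubiquitin fusion genes, 7 (50%) were RNAPII-only and 3 (21.4%) H3K4me1-only. Among all genes in the middle length range of the list, the shares were 12.7% and 7.46%. Of the 6 list members in that range, 83.3% were RNAPII-only and 0 were H3K4me1-only. UBQ11 and UBQ10 had 31 and 33 RNAPII loops and were joined to each other by 26 PETs over 131.0 kb. Of 13 PIP aquaporin genes, water channels of the plasma membrane, 6 were RNAPII-only and none were in the H3K4me1 list, with PIP2E highest at 14 loops. Of all genes in the middle length range of that list, 12.5% were RNAPII-only and 13.5% H3K4me1-only. Of the 7 list members in that range, 57.1% were RNAPII-only. Among 323 ribosomal protein genes, 86 (26.6%) were RNAPII-only and 24 (7.43%) H3K4me1-only, while 208 (64.4%) were in neither list. Of the 161 list members in the middle length range, 32.3% were RNAPII-only and 6.21% H3K4me1-only, beside 12.9% and 7.84% of all genes there. The share in neither list was near the 64.0% of all genes.

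Large nuclear proteins were encoded mainly by H3K4me1-only genes. Of 23 chromatin remodeller ATPases, 20 (87.0%, 66.4 to 97.2) were H3K4me1-only, 0 were RNAPII-only and 2 were in both. SYD had 48 H3K4me1 loops with 487 PETs, CHR5 had 28, and PKL, a CHD3 remodeller that represses embryonic genes, had 21. BRM, another SWI/SNF ATPase, was in both lists with 18 H3K4me1 loops and 3 RNAPII loops. The histone methyltransferase and Polycomb list also holds the jumonji genes JMJ14, ELF6 and REF6, which are neither. Of its 23 genes, 19 (82.6%) were H3K4me1-only and none were in the RNAPII list. They included SDG2 and ATX1, which methylate H3K4 itself, with 23 and 13 H3K4me1 loops, EFS, which methylates H3K36, with 21, and EMF2 of Polycomb complex 2, with 11. Among 28 small RNA and RNA polymerase genes, 24 (85.7%) were H3K4me1-only. The 2 largest subunits of RNAPII belonged to them, since NRPB1 had 15 and NRPB2 had 14 H3K4me1 loops and neither had an RNAPII loop. DCL4 and DCL1, Dicer enzymes that cut small RNAs, had 29 and 19 H3K4me1 loops, and AGO1, which carries small RNAs, was in both lists with 13 H3K4me1 loops and 1 RNAPII loop. DCL1 and NRPB1 were joined between chromosomes by 8 PETs, and NRPB2 and DCL4 by 10.

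These genes were long, and gene length moved with the class. Among all genes in the middle length range of the remodeller list, 76.7% were H3K4me1-only, beside 90.9% of the 11 remodellers in that range. For the histone methyltransferase and Polycomb list the values were 66.8% and 81.8%, and for small RNA and polymerase genes 76.4% and 92.9%. Nuclear pore genes (18 of 24), helicases (84 of 128) and kinesins and myosins (60 of 106) were likewise mainly H3K4me1-only, with NUA of the pore basket at 34 loops and the myosin MYA1 at 42. In their middle length ranges, 91.7% of pore genes, 78.1% of helicases and 61.5% of kinesins and myosins were H3K4me1-only, beside 63.3%, 52.6% and 40.998% of all genes of those lengths. Genes annotated as pentatricopeptide or TPR-like repeat proteins, a list that mixes these families, stood at 32.7% beside 21.3% of genes of their length, and leucine-rich repeat receptor kinases at 38.7% beside 50.0%.

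**Figure D3:**
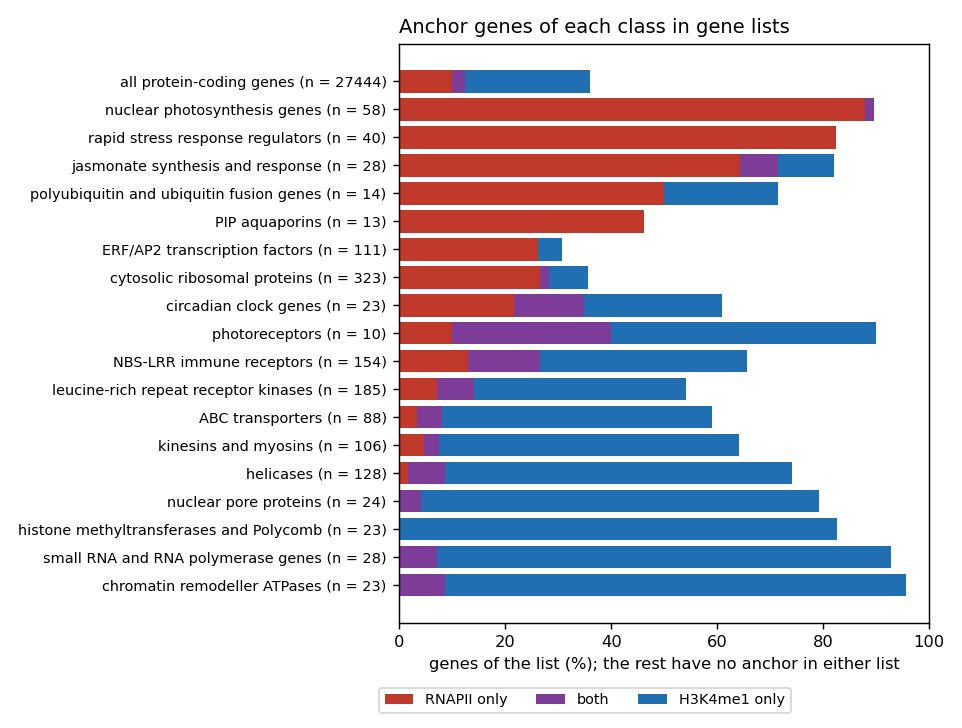
Share of the genes of each list (percent, x axis; number of genes in parentheses) that were RNAPII-only (red), both-list (purple) or H3K4me1-only (blue) anchor genes, with all protein-coding genes in the top bar. Photosynthesis and rapid stress genes are almost all red (87.9% and 82.5%). Remodellers, small RNA genes and the histone methyltransferase and Polycomb list are almost all blue (87.0%, 85.7% and 82.6%). The last of these also holds some jumonji genes.

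Other lists had members in each class. Among 23 circadian clock genes, 5 (21.7%) were RNAPII-only, 6 (26.1%) H3K4me1-only, 3 in both and 9 in neither. The H3K4me1-only share was near the 23.7% of all genes. Of the 11 list members in the middle length range, 18.2% were H3K4me1-only, 9.09% RNAPII-only and 27.3% in both. Among all genes of that range the shares were 36.9%, 10.7% and 3.68%. The most RNAPII loops of the list were on AT3G12320, with 22, and AT5G06980, with 16, both RNAPII-only. AT3G54500, in both lists, had 12 RNAPII loops and 1 H3K4me1 loop. LHY, a morning MYB factor, had 7 RNAPII loops and no H3K4me1 loop, and its partner CCA1 had none of either. TOC1, GI, ELF3 and PRR7 had 2, 2, 4 and 1 H3K4me1 loops and no RNAPII loop, while PRR5, PRR9 and ELF4 were in neither list. RVE8, another MYB factor, had 1 loop in each list. Of 10 photoreceptor genes, 5 were H3K4me1-only, 1 was RNAPII-only and 3 were in both. The 4 members in their middle length range were 100% H3K4me1-only, beside 65.0% of all genes of that range. The blue light receptor PHOT2 had 5 RNAPII and 7 H3K4me1 loops, PHYA had 3 and 4, and CRY1 had 3 RNAPII loops alone. Of 154 NBS-LRR immune receptors, 21 (13.6%) were in both lists, 20 were RNAPII-only and 60 H3K4me1-only. In their middle length range 10.5% were in both, beside 6.93% of all genes. There 11.8% were RNAPII-only and 42.1% H3K4me1-only, beside 7.30% and 53.7% of all genes. WRR4, a receptor for white rust, had 49 RNAPII loops with 967 PETs and 1 H3K4me1 loop of 9 PETs, and its anchor also covers the receptor gene AT1G56520. RPS4 and RRS1, neighbouring receptors that act as a pair, were joined in the H3K4me1 list by 21 PETs. ABC transporters were near the background, with 50% H3K4me1-only in their middle length range beside 51.5% of all genes. Among them PEN3, which exports defence compounds, had 49 RNAPII loops and 2 H3K4me1 loops.

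The 666 genes in both lists did not have the same rank in both. Their loop numbers had a Spearman correlation of -0.00415 (n = 666 genes, which share anchors and libraries). Gene length correlated with the number of H3K4me1 loops at 0.556 and with the number of RNAPII loops at 0.130. Only 32 of the 666 had 5 loops or more in both lists, while 185 had as many RNAPII loops and 126 as many H3K4me1 loops. The callose synthase gene GSL8, of 15294 bp, headed them with 11 RNAPII and 53 H3K4me1 loops. A clathrin heavy chain gene, AT3G11130, had 9 and 25, and the lipid-flipping ATPase gene ALA3 had 9 and 23. PAA2, a copper pump of chloroplasts, had the reverse order with 43 RNAPII and 8 H3K4me1 loops. Its RNAPII anchor covers 2503 of its 6169 bp and 1705 of the 1757 bp of AT5G21940, so these loops cannot be assigned to 1 gene.

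Loops of RNAPII reached farther than loops of H3K4me1. Between chromosomes lay 3294 of 7166 RNAPII loops (46.0%, 44.8 to 47.1) and 2849 of 12261 H3K4me1 loops (23.2%, 22.5 to 23.99). Within chromosomes, spans fell into a short and a long mode in both lists, and 37.4% of RNAPII loops were under 20 kb and 41.4% over 1 Mb, against 52.5% and 30.1% of H3K4me1 loops. The order was the same for loops with both ends in 1 list, which lay between chromosomes in 45.7% of cases for RNAPII and 23.03% for H3K4me1 and had median spans of 63.7 kb (46.2 to 103) and 16.8 kb (16.2 to 17.8). Loops with both ends shared were the shortest in either list. Of those within chromosomes, 47.4% for RNAPII and 70.7% for H3K4me1 were under 20 kb, and 37.4% and 16.2% of all such loops lay between chromosomes. Both lists were mostly local among their most significant loops. At a deposited FDR below 0.001, 1.95% of RNAPII and 0.273% of H3K4me1 loops with both ends in 1 list were between chromosomes, and the median spans were 9.40 and 7.95 kb.

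**Figure D4:**
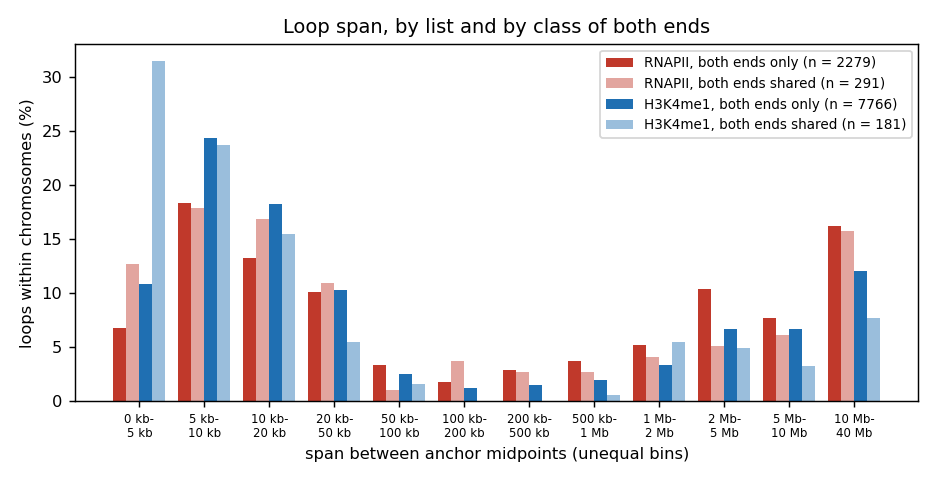
Share of loops within chromosomes (percent, y axis) by span between anchor midpoints (x axis, unequal bins), for RNAPII (red) and H3K4me1 (blue) loops with both ends in 1 list (dark) or both ends shared (pale). All sets have a mode under 20 kb and another over 1 Mb, with the long mode higher for RNAPII and the short mode highest for H3K4me1 loops with both ends shared (70.7% under 20 kb).

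The strongest distant loops showed which genes were joined. In the RNAPII list, the most PETs over 20 kb or more joined AT1G53210 to the anchor beside MST1 (137 PETs, 9959.8 kb), WRR4 to AT1G56660 (79 PETs, 66.8 kb) and AT1G18740 to the MST1 anchor (78 PETs, 23341.7 kb). Between chromosomes, the MST1 anchor was joined to AT4G29780 by 116 PETs and to NAC102 by 100, and LOX3 was joined to the AT4G32030 anchor by 75. In the H3K4me1 list, the strongest such loop joined AT1G67120, which encodes a midasin-like protein, to SWEETIE, 26.5 kb away, with 292 PETs. ATM was joined across chromosomes to the nuclear pore gene EMB3142 by 45 PETs, and TOR to GSL8 by 29.

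The share of well connected anchors rose with gene length for H3K4me1, and varied far less for RNAPII. Anchors with 5 partners or more made up 27.04% of RNAPII-only (25.2 to 29.0), 31.1% of shared RNAPII (27.6 to 34.8), 22.3% of H3K4me1-only (21.2 to 23.4) and 19.8% of shared H3K4me1 anchors (16.9 to 22.9). At an FDR below 0.001 the order turned, with 1.76% of RNAPII-only and 3.30% of H3K4me1-only anchors. Across gene lengths the share for RNAPII ran from 16.8% (9.94 to 25.9) under 1 kb and 26.1% between 1 and 2 kb to 34.0% between 3 and 4 kb and 27% (18.6 to 36.8) between 6 and 10 kb. For H3K4me1 it ran from 2.90% between 1 and 2 kb to 33.3% between 4 and 6 kb, 80.3% (77.2 to 83.2) between 6 and 10 kb and 91.9% over 10 kb. Deposited tags per anchor moved with it. Over the same bins the median rose from 1147 to 20914 tags in H3K4me1 anchors, whereas it stayed between 1916.5 and 2458 tags in RNAPII anchors of 1 to 10 kb genes. Median anchor width rose from 1215.5 to 10634 bp for H3K4me1 and lay between 2173 and 4315 bp for those RNAPII anchors. Partners per kb of anchor were 0.888 in the first and 2.61 in the last of these H3K4me1 bins. For RNAPII they fell from 2.15 between 1 and 2 kb to 1.25 between 6 and 10 kb.

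When anchors were set side by side in bins of tags, little of the rise with gene length was seen and the lists stood apart. Among H3K4me1 anchors with 4000 to 8000 tags, 19.1% had 5 partners or more on genes under 3 kb, 9.38% on genes of 3 to 4 kb, 24.1% on genes of 4 to 6 kb and 21.4% (12.5 to 32.9) on genes of 6 kb or more. At that number of tags, 75.1% of all RNAPII anchors (70.9 to 78.9) and 18.7% of all H3K4me1 anchors (17.1 to 20.5) had 5 partners or more. With 2000 to 4000 tags the shares were 16.7% and 0.984%, and with 8000 to 16000 tags 100% and 84.3%, the latter made up of 77.4% on genes of 4 to 6 kb and 89.8% on genes of 6 kb or more. The tag bins were chosen after the values were seen, and how far tags per anchor compare between 2 antibodies was not tested.

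**Figure D5:**
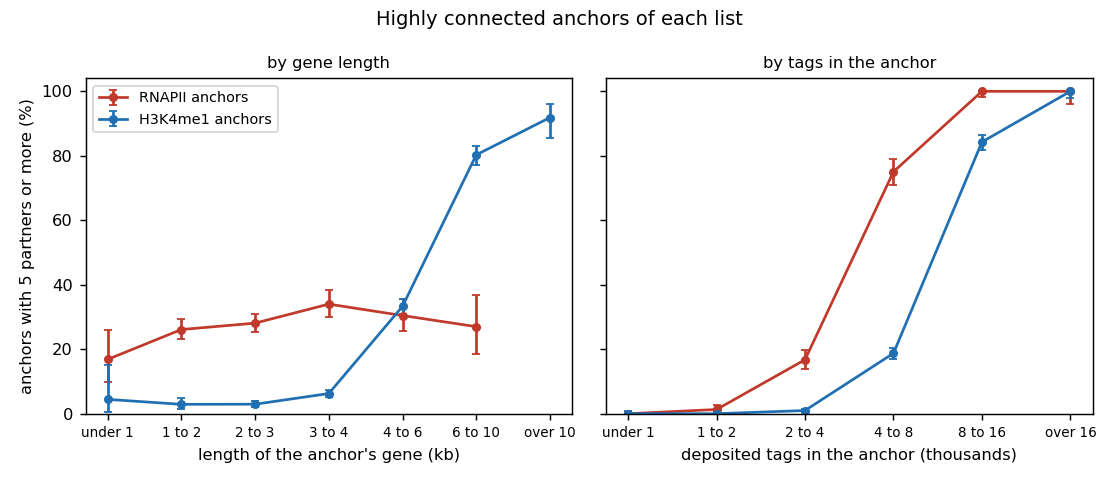
Share of anchors with 5 partners or more (percent, y axis) for RNAPII (red) and H3K4me1 (blue), by the length of the anchor's gene in kb (left) and by the deposited tags in the anchor (right); bars are exact 95% binomial intervals. By length the RNAPII share lies between 16.8% and 34.0% and the H3K4me1 share climbs to 91.9%, and between 1000 and 16000 tags the RNAPII share lies above the H3K4me1 share of the same bin, as with 75.1% against 18.7% at 4000 to 8000 tags.

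Distant contact had the same link to gene length. Of the 254 H3K4me1 loops with both ends in genes under 3 kb, 0 lay between chromosomes, which allows up to 1.44%, and of the 1953 with both ends in genes of 3 to 6 kb, 35 (1.79%) did. Of the 2135 with both ends in genes of 6 kb or more, 1209 (56.6%, 54.5 to 58.7) did. In the RNAPII list the shares were 43.1% (41.3 to 45.01) under 3 kb and 49.3% (45.9 to 52.7) at 3 to 6 kb, with 3 of only 25 loops at 6 kb or more. Here part of the rise was also seen within a bin of tags. Among H3K4me1 loops whose ends both had 8000 to 16000 tags, 12.4% (7.91 to 18.1) lay between chromosomes with both ends in genes of 3 to 6 kb, and 46.9% (43.4 to 50.4) with both ends in genes of 6 kb or more. Loops between well connected anchors were the distant ones in both lists. Where both ends had 5 partners or more, 62.3% of RNAPII and 40.995% of H3K4me1 loops lay between chromosomes, and where neither end had, 0.206% and 0.178% did.

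The leading anchors of the lists lay on different genes. The RNAPII-only anchor with 140 partners and 3460 PETs, at chr1:29803770-29809868, lay for 4921 of its 6099 bp over the transcribed pseudogene AT1G79245 and touched only the last 264 bp of MST1, a sulfurtransferase gene. Without it, 45.5% of RNAPII loops lay between chromosomes. Next came AT1G61890, a MATE efflux carrier, with 91 partners, and AT4G32030, of unknown product, with 71, in the anchor that also covers AT4G32020. The RNAPII anchors that were shared and had most partners lay over AT4G21570 (53), PEN3 (49) and WRR4 (49). Among H3K4me1-only anchors, AT1G48090, annotated as a lipid-binding protein gene of 26499 bp, had 120 partners and ATM had 115. AT1G67120, a midasin-like gene, had 86, TOR, the kinase that ties growth to nutrients, had 68, and ILA also had 68. The leading shared H3K4me1 anchors were GSL8 (53), GSL10 (52) and ECA3, a calcium pump (35). Short genes were found among RNAPII-only anchors of 5 partners or more, such as AT4G05070, a wound-responsive family gene of 531 bp with 6 partners, and the longest were AT3G11130 (9917 bp, 5 partners) and the clock regulator TIC (6803 bp, 16 partners). The longest of the H3K4me1-only genes with such anchors was ATM at 27265 bp, and the shortest AT1G28815, at 701 bp with 7 partners.

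Nearly no loop was common to the lists. A loop was matched when both of its anchors overlapped both anchors of a loop in the other list. This held for 58 of 7166 RNAPII loops (0.809%, 0.615 to 1.05) and 63 of 12261 H3K4me1 loops (0.514%, 0.395 to 0.657). The RNAPII share moved with the setting, to 2.94% at an FDR below 0.001, 0.405% with an overlap of 0.5 of the smaller anchor and 0.0977% with the central 1 kb of each anchor. Of the loops with both ends shared, 12.5% of the 465 RNAPII loops and 29.2% of the 216 H3K4me1 loops were matched. None of the matched loops lay between chromosomes, and their median span was 7.46 kb in the RNAPII list. The matched loop with the most PETs joined AT5G01720 to SCAR4, a gene of the actin-nucleating SCAR complex, with 54 RNAPII and 8 H3K4me1 PETs. Another joined ARA-2, a Rab GTPase, to TPS7, a trehalose phosphate synthase gene, with 51 RNAPII PETs and, through the neighbouring GSK1, 8 H3K4me1 PETs. On ARK2, a receptor kinase gene, an RNAPII loop with both ends on the gene had 8 PETs. The H3K4me1 loop matched to it joined ARK2 to EDA10 with 43 PETs. Counted by genes, 66 of the 14504 gene pairs joined by RNAPII loops (0.455%) were among the 17275 joined by H3K4me1 loops (0.382%). How many loops or gene pairs would match between unrelated lists was not tested.

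The CGCG box of the sequences shown above was more frequent on the RNAPII side across all genes. It was counted on both strands in the 300 bases from 250 before to 50 after the start site. CGCGT was found in 8.70% of all protein-coding genes, in 17.2% (15.8 to 18.7) of RNAPII-only genes, 20.0% (17.0 to 23.2) of genes in both lists and 8.91% (8.23 to 9.63) of H3K4me1-only genes. The share rose with the number of RNAPII loops, from 12.9% (10.997 to 14.96) of genes with 1 loop to 17.5% with 2 to 4, 21.1% with 5 to 19 and 28.4% (23.1 to 34.1) of genes with 20 or more, the set of AT4G32020 and AT4G27652. In the H3K4me1 list the shares were 10.0%, 9.44%, 10.11% and 14.1% (9.35 to 20.1). Genes that lie in 1 anchor share its loops and are counted one by one. The G-box was found in 7.68% of all genes, 10.7% of RNAPII-only and 8.40% of H3K4me1-only genes, and in 17 of the 58 photosynthesis genes (29.3%) that LHCB6 and LHCA4 belong to. The telo box (AAACCCTA), frequent in ribosomal protein promoters, was rarer in RNAPII-only genes (3.93%, 3.23 to 4.73) than in H3K4me1-only genes (6.74%, 6.14 to 7.38), and stood at 6.22% of all genes. TATAAA was found in 52.3% and 48.0% of the same classes, the W box (TTGACC) in 16.9% and 14.0%, and the site II element (TGGGCC) in 16.1% and 18.8%. A match of these letters does not show that a factor binds there.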

How the data were processed

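Loop lists of the RNAPII and H3K4me1 ChIA-PET libraries were used (4 of 10 samples, 2 labelled replicates each). The authors combined the replicates and called loops on TAIR10 with ChIA-PET Tool V3, taking ChIP-seq peaks as given anchors, at an FDR under 0.05 with a PET minimum set by depth. For the mapper, no version was given in the sources used here. The deposited counts of PETs per loop and tags per anchor are raw whole numbers with no normalization. The deposited p-values used are FDR values, which served in 1 stricter filter.

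Loops were filtered to the common minimum. Loops that join an anchor to itself (166 RNAPII, 1094 H3K4me1) count in loop totals only. Genes and sequences came from RefSeq TAIR10.1, whose nuclear chromosomes have the TAIR10 lengths and hold all anchors. Shares have exact Clopper-Pearson 95% intervals and medians order-statistic intervals. Replicates were pooled before deposit, so no p-value was computed. The members, the 34 gene lists and the tests were chosen with earlier results of these data known, and support nothing independently. Named genes were the anchors of highest degree in each class, the loops with most PETs, and the longest and shortest genes of well connected anchors. In the gene lists, genes were picked among members with many PETs and members that went against the rest. Not every such member is named, and some other members are. Scripts were tested on simulated loops. Python 3.11.15, NumPy 2.4.6, pandas 2.3.3, SciPy 1.17.1, Biopython 1.88 and Matplotlib 3.10.9 were used. Settings tried were other PET minimums, a stricter FDR, other overlap rules, anchors of self loops and other gene rules.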

Additional observations from a re-analysis of the deposited data

How the results depend on the processing

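No paired analysis was possible because the replicates were pooled before deposit, and for the same reason no replicate could be left out. With the PET minimum of each list as deposited there were 13633 RNAPII loops, 15.8% of H3K4me1 anchors were shared, 80.7% of RNAPII-only anchors covered the gene end and 61.7% an H3K4me3 anchor, 31.2% of them had 5 partners or more, RNAPII loops with both ends in 1 list spanned 294.5 kb with 42.4% between chromosomes, and 1114 genes were in both lists. With 10 PETs within and 12 between chromosomes there were 3284 RNAPII and 4022 H3K4me1 loops, with 10.3% and 5.32% of anchors shared. Anchors in 1 list then had gene lengths of 2493 and 4195 bp, covered the gene end in 92.3% and 23.9% of cases and an H3K4me3 anchor in 74.4% and 41.6%, and had 5 partners or more in 22.7% and 7.68%. Their loops spanned 41.3 and 9.68 kb with 48.2% and 12.7% between chromosomes, 0.534% of RNAPII loops were matched, 139 genes were in both lists and 3547 were H3K4me1-only. At an FDR below 0.001 there were 1809 and 5796 loops, 18.1% and 7.55% of anchors were shared, 85.5% of RNAPII-only anchors covered the gene end, spans were 9.40 and 7.95 kb, 1.95% and 0.273% of loops lay between chromosomes, 2.94% of RNAPII loops were matched and 420 genes were in both lists. Well connected anchors were then 1.76% of RNAPII-only and 3.30% of H3K4me1-only anchors, the reverse of the order in the report. Asking for 0.5 of the smaller anchor left 14.7% and 6.53% shared and 0.405% of RNAPII loops matched. With the central 1 kb of each anchor, 11.3% and 4.94% were shared, RNAPII-only gene length was 2385 bp with 85.3% over the gene end, H3K4me1 loops spanned 18.2 kb with 23.9% between chromosomes, and 0.0977% of RNAPII loops were matched. Anchors that touch 1 gene had gene lengths of 2375.5 and 3602 bp. For anchors and loops in 1 list, the order of the lists was the same in every setting tried for gene length, gene end, span, share between chromosomes and H3K4me3. For shared anchors, gene length was longer in the RNAPII list in 2 settings, the central 1 kb (3738.5 against 3720.5 bp) and anchors that touch 1 gene (4612.5 against 3991 bp). Settings for hubs by gene length and for the CGCG box were chosen after seeing the data. The share of well connected H3K4me1 anchors stayed higher on genes of 6 kb or more than on genes of 1 to 3 kb (29.9% against 0.283% with 10 and 12 PETs, 13.7% against 0.694% at an FDR below 0.001). CGCGT was found in 15.7% to 20.5% of RNAPII genes and 9.47% to 9.94% of H3K4me1 genes. Depth limits both lists, since a loop under the PET minimum is not seen.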
